A study of Mus musculus with 2 samples.

Results

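Cytosolic ribosomal protein genes were described in cells taken from the inner surface of the mouse aorta at 2 ages. The members were all rows of both count files whose names begin with Rpl or Rps and a number, with at most 1 of the letters a, x, y or l and a further number, together with Rplp0, Rplp1, Rplp2 and Rpsa. Kinase genes of the Rps6k family were left out, and rows with -ps in the name, which are pseudogenes by name, were kept apart. This gave 84 of 27998 gene rows, 32 of the small subunit and 52 of the large subunit, beside 16 rows with -ps. In the young library 82 members had at least 1 UMI and in the old library 83.

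The study compared the aorta of 1 young mouse, 8 weeks old, with that of 1 old mouse, 18 months old, both of strain C57BL6/J and with no treatment named in the labels. Each aorta was freed of adventitia, its inner surface was treated with trypsin for 10 minutes, and the cells were lifted off with a small scalpel under a microscope. Single-cell 3′ libraries were made in droplets, in which each captured RNA molecule carries a unique molecular identifier (UMI) and is counted once by its 3′ end. With 1 library per age, age, animal and preparation cannot be told apart, no test between ages was possible, and intervals cover counting error only.

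Ribosomal proteins are the protein part of the ribosome, the machine that translates messenger RNA in the cytosol. The small subunit reads the message and the large subunit joins the amino acids, and each protein is built into a ribosome in fixed proportion to the others. Their messenger RNAs are among the most abundant in most cells and typically begin with a cytosine followed by a run of pyrimidines, the 5′ terminal oligopyrimidine (TOP) tract, through which the mTOR pathway sets their translation. Many of the genes have left processed pseudogenes, copies of the spliced message that were written back into the genome.

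The young library held 1366 barcodes and 12576023 UMIs, and the old library 3408 barcodes and 19171045 UMIs. Of these, 1360 and 3332 cells were kept, and 11 barcode sequences occurred in both libraries. Classes were built from clusters made without the ribosomal protein genes, so the members did not shape them, and were named from marker genes. EC-like (endothelial) cells numbered 1032 young and 1925 old, and all 9 endothelial markers were seen in both libraries, at a summed 8315 and 7982 CPM (counts per 1e6 UMIs of the class). Young and old EC-like cells mostly fell into different clusters: one pair of clusters held 55.0% and 39.8% of the young ones, and the remaining clusters held 49.9%, 23.4% and 24.9% of the old ones. The EC-like cluster led by Sost and Coch held 411 young and 1 old cells. A cluster led by Cyp4b1, Adra2a and Sost, with 64 young and 507 old cells, stayed unnamed and outside the class. EC-like ratios of old over young thus compare unlike mixes of endothelial clusters. Haemoglobin and other erythroid markers in EC-like cells summed to 25.3 (young) and 614 CPM (old), and 19 immediate early and dissociation genes to 12642 and 7636 CPM. The part of either in the values below was not tested.

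The stretches around the annotated transcription start are shown for the members with the highest and lowest old-over-young ratios in EC-like cells that had a promoter entry, 4 of each. They are given because the start of the message is where the TOP tract lies. Each runs from 20 bases before the start to 20 bases from it, 5′ to 3′ on the gene's strand, from RefSeq on build GRCm38.p6. Capitals mark the longest run of at least 5 pyrimidines that opens with C within 5 bases of the start, and a stretch with no capitals holds no such run.
Rps19, chr7:24884572-24884611, plus strand: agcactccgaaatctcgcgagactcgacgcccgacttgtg
Rps9, chr7:3704021-3704060, plus strand: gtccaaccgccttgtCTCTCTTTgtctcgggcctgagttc
Rps6, chr4:86857348-86857387, minus strand: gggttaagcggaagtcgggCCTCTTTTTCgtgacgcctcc
Rpl13a, chr7:45128726-45128765, minus strand: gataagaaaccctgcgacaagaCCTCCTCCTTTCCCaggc
Rpl15, chr14:18270967-18271006, minus strand: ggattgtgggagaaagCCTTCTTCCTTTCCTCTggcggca
Rpl27, chr11:101442225-101442264, plus strand: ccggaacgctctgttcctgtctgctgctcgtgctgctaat
Rps28, chr17:33824543-33824582, minus strand: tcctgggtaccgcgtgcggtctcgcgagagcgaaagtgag
Rpl38, chr11:114668560-114668599, plus strand: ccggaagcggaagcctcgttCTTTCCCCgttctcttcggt
Runs occurred at both ends of the ranking, the longest of the 8 in Rpl15, the member with the lowest ratio. Of the 84 members 63 had a promoter entry. A run of at least 5 pyrimidines led by C began exactly at the annotated start in 12 of these 63 (19.05%), against 2.26% of 17999 genes with both an entry and a row in the files. Within 5 bases of the start the shares were 44.4% and 18.8%, searched on the gene's strand only. Among members with at least 100 UMIs, the 28 with such a run had a median log2 ratio of old over young of 0.06 in EC-like cells, and the 32 without had 0.11. In fibroblast-like cells the medians were 0.53 and 0.57. Annotated starts can be some bases away from the true start, and a stretch without a run says only that these letters are not in this window.

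Ribosomal protein UMIs made up 17.6% of the young and 19.95% of the old library. In EC-like cells the share was 17.81% in young (exact Clopper-Pearson 95% interval 17.79 to 17.84%) and 19.02% in old (18.995 to 19.04%), a difference of 1.20 percentage points. Single EC-like cells spread more widely than this difference. The 5th to 95th percentiles were 13.3 and 21.8% in young and 13.7 and 24.0% in old, around medians of 17.6% and 18.8%. In fibroblast-like cells, which carried all 8 fibroblast markers, the share was 16.8% in 240 young cells (16.7 to 16.8%) and 23.9% in 577 old cells (23.8 to 23.9%), a difference of 7.12 points. The old median of 24.1% lay above the young 95th percentile of 22.4%. The 43 pseudogene and copy rows described below stand outside these shares. They summed to 7385 (young) and 2973 CPM (old) in EC-like cells, and to 7382 and 3882 CPM in fibroblast-like cells. Their part in the differences was not tested. The cluster that stayed unnamed, led by Cyp4b1, Adra2a and Sost with endothelial and some smooth muscle markers, had 15.995% in 64 young cells and 19.03% in 507 old cells.

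Depth differed between the libraries, and the difference in share was also seen among cells of like depth. EC-like cells held a median of 7505.5 UMIs in young and 4826 UMIs in old. Among EC-like cells with 4000 to fewer than 8000 UMIs the shares were 17.8% in young (383 cells) and 18.4% in old (671 cells), a smaller gap than over all cells. With 2000 to fewer than 4000 UMIs they were 16.6% and 19.1%, and with 8000 to fewer than 16000 UMIs 17.7% and 19.3%. Among fibroblast-like cells with 4000 to fewer than 8000 UMIs the shares were 15.9% and 24.0%. With each cell thinned to 3000 UMIs, the median share in EC-like cells was 17.7% in 954 young cells and 18.7% in 1471 old cells, leaving out 78 and 454 shallower cells. In fibroblast-like cells it was 16.4% in 225 and 24.0% in 483 cells, leaving out 15 and 94. Both fibroblast-like clusters showed a difference, each smaller than over the class. The shares were 14.9% (103 young cells) and 19.7% (64 old cells) in the cluster led by F3 and Gdf10, where the old median was 18.5%. They were 17.8% (137 cells) and 24.2% (513 cells) in the one led by Ccl11 and Col1a1. The mix of the clusters thus differed between the libraries, and its part in the class difference was not tested.

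The remaining classes were compared within the old library, where each held at least 37 cells. T or NK-like cells had the highest share, 38.2% (38.04 to 38.38%) over 118 cells, and monocyte or macrophage-like cells had 20.2% over 168 cells. Erythroid-like cells had the lowest, 4.22% over 37 cells, in which erythroid markers made up 773830 CPM. T or NK-like cells were the shallowest, at a median of 2340 UMIs, and the part of depth in their share was not tested. All 5 measured B cell markers were seen in these cells too, at a summed 1393 CPM, so the class is not a pure T or NK population. A median T or NK-like cell held 867.5 ribosomal protein UMIs and 1349.5 other UMIs, while a median old EC-like cell held 872 and 3945. The median number of ribosomal protein UMIs per cell was thus close in both, while the other UMIs were fewer in T or NK-like cells. The same classes held 9, 14 and 1 young cells and are not compared by age.

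**Figure D1:**
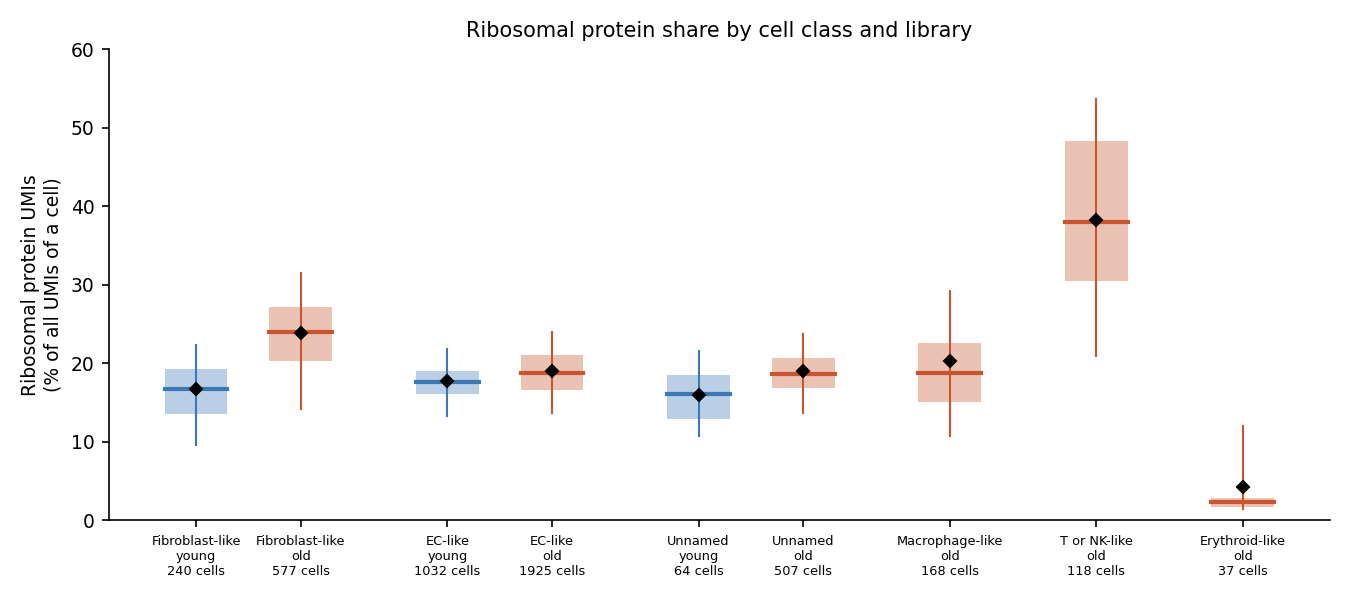
Share of ribosomal protein UMIs in single cells by class and library, as a percent of all UMIs of a cell. Blue is young and orange old, lines span the 5th to 95th percentile, boxes the quartiles, bars the median, and diamonds the share over summed UMIs. The old fibroblast-like and T or NK-like cells sit highest and the erythroid-like cells lowest.

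The split between subunits was nearly constant. Small subunit members made up 44.2% of ribosomal protein UMIs in young and 44.5% in old EC-like cells, 42.7% and 43.5% in fibroblast-like cells, and 45.2% in old T or NK-like cells. Since a 3′ UMI counts a molecule once whatever its length, CPM values of different members can be compared without division by length. Across 81 members with at least 100 UMIs in EC-like cells, levels spanned 75.3 to 6254 CPM in young with a median of 2057 CPM, and 69.5 to 5906 CPM in old with a median of 2248 CPM. Rps29, Rps14, Rpl41 and Rps27 had the highest mean levels. Rps29 stood at 6254 (young) and 4700.2 CPM (old), and Rps14 at 4622 and 5906 CPM. Rps29 thus had the highest count of the members in young and Rps14 in old. Levels in young and old EC-like cells followed each other across the 81 members, with a Spearman correlation of 0.94.

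In EC-like cells most members differed little between the libraries, and a few were clearly lower in old. A gene is called here when its log2 ratio of old over young is at least 0.5 up or down, among genes whose UMIs over both libraries sum to 100 or more. No member of 81 was called higher, against 8.29% of all 9786 genes, and 4 were called lower, against 6.84% of all genes, so the members did not exceed the background in either direction. Their median log2 ratio was 0.10, beside 0.07 over all genes, with 57 above 0 and 24 below. The ratio lay within 0.25 of 0 for 53 of the 81. At a log2 ratio of at least 1, 0 members were higher, against 1.36% of all genes, and 1 (Rpl15) was lower, against 2.22%. Among 628 genes with at least 5000 UMIs, 0 of 80 members were called higher, against 3.34%, and 4 lower, against 9.55%. With trimmed-mean (TMM) scaling 48 of 81 stood above 0 with a median of 0.04, and within the ribosomal protein total 43 of 81 with a median of 0.01.

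Rpl15, a large subunit protein (chr14:18267823-18271391), had the lowest ratio of all. It stood at 1047 CPM in EC-like cells of the young mouse and 478 CPM in those of the old, giving a log2 ratio of -1.13 (exact conditional binomial 95% interval -1.18 to -1.08). In fibroblast-like cells it stood at 1195 and 640 CPM, with a log2 ratio of -0.90 (-0.99 to -0.81). Rpl15 was thus lower in old in both classes, while the median member was not. Rpl27 (chr11:101442298-101445529), also of the large subunit, stood at 806 and 453 CPM in EC-like cells (-0.83, -0.88 to -0.78) and at 816 and 608 CPM in fibroblast-like cells (-0.42, -0.52 to -0.33). Rpl6l matched the naming rule but is annotated as a processed pseudogene (chr10:111125851-111126721). It stood at 347 and 179 CPM in EC-like cells, for a ratio of -0.96 (-1.04 to -0.88). Rps28, a small subunit protein, stood at 2703 and 1895 CPM (-0.51, -0.54 to -0.49), and Rpl38 at 2583 and 1867 CPM (-0.47, -0.49 to -0.44). Rps28 lay just past the limit of a call and Rpl38 just short of it. Of their 3′ sequence, the last 500 bases cut into 50-base words, Rpl15 shared 45.4%, Rpl27 61.7% and Rpl6l 76.9% with other genes, which makes their counts uncertain. Rps28 shared 23.2% and Rpl38 27.4%.

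The highest ratios were smaller in size. Rps19, a small subunit protein mutated in Diamond-Blackfan anaemia, stood at 2728 CPM in EC-like cells of the young mouse and 3853 CPM in those of the old, giving a log2 ratio of 0.50 (0.48 to 0.52). Its unrounded value lay just under the limit of a call. Rps9 stood at 2080.5 and 2826 CPM (0.44, 0.42 to 0.47). Rps6, the small subunit protein phosphorylated by S6 kinases downstream of mTOR, stood at 1867 and 2511 CPM (0.43, 0.40 to 0.45). Rpl13a, known for a role in translational silencing by the GAIT complex, stood at 3046 and 4097 CPM (0.43, 0.41 to 0.45). All 4 were higher in old fibroblast-like cells too, at ratios of 0.74 to 0.86. The shared part of the 3′ sequence was 90.7% for Rps6 and 15.3% for Rps9.

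**Figure D2:**
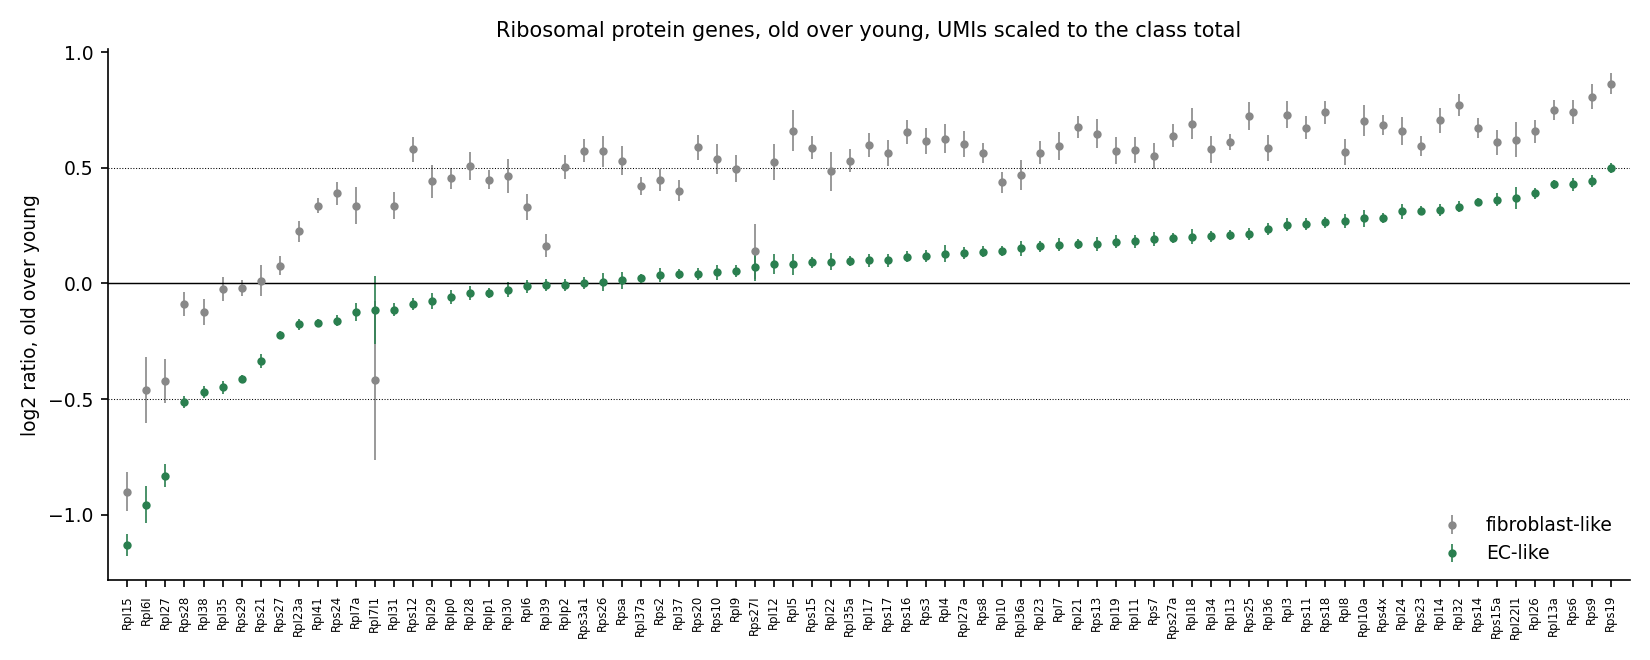
Log2 ratio of old over young for members with at least 100 UMIs in EC-like cells, leaving out genes not reported here, ordered by the EC-like ratio, with exact 95% counting intervals. Green points are EC-like and grey points fibroblast-like cells, and dotted lines mark the limit of a call. Grey points lie above green ones for all members shown but Rpl7l1, and Rpl15, Rpl6l and Rpl27 lie lowest among the green points.

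Members named for their known roles differed by less than 0.25 in EC-like cells, apart from Rps6 above. The acidic stalk proteins Rplp0, Rplp1 and Rplp2, which recruit elongation factors to the large subunit, had ratios of -0.06 (-0.09 to -0.03), -0.04 (-0.06 to -0.02) and -0.01 (-0.03 to 0.02). Rplp0 stood at 1665 (young) and 1600.0 CPM (old) in EC-like cells and at 2762 and 3783 CPM in fibroblast-like cells. Its level was thus higher in fibroblast-like than in EC-like cells in both libraries. Rpsa, the small subunit protein also known as the laminin receptor, stood at 1158 and 1169 CPM in EC-like cells (0.01, -0.02 to 0.05). Rpl5 and Rpl11, which with 5S RNA bind Mdm2 when ribosome assembly fails, had ratios of 0.08 (0.04 to 0.13) and 0.18 (0.15 to 0.21). Rpl5 stood at 726 and 769 CPM and Rpl11 at 1982 and 2248 CPM, so the counts of these partners of 1 complex differed in both libraries. They shared 50% and 65.3% of their 3′ sequence with other genes, so a difference in true level is uncertain.

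The members with the shortest coding sequences tended to be lower in old EC-like cells, a pattern noticed after the values were seen. Of the 8 members with a coding sequence under 260 bases, 7 had a ratio below 0 in EC-like cells, with a median of -0.28 over the 8, against 16 of 72 longer members, with a median of 0.13. Rpl41, the shortest with 75 bases, stood at 5467 (young) and 4858 CPM (old) (-0.17, -0.19 to -0.15). Rps29 with 168 bases had a ratio of -0.41 (-0.43 to -0.40), Rps21 with 249 bases -0.33 (-0.36 to -0.31) and Rps27 with 252 bases -0.22 (-0.24 to -0.21). Rpl39 with 153 bases stood at -0.01 (-0.04 to 0.02), and Rps27l with 252 bases, the member above 0, at 0.07 (0.01 to 0.13). Just past the limit Rpl37a with 276 bases stood at 0.02 and Rpl37 with 291 bases at 0.04. The 8 together made up 15.2% of ribosomal protein UMIs in young and 11.6% in old EC-like cells. In fibroblast-like cells they made up 14.03% and 10.5%, although their median log2 ratio there was 0.04 with 3 of 8 below 0, against 0.58 with 4 of 72 below 0 for the longer members.
Rpl15 and Rpl27 were lower although their coding sequences have 612 and 408 bases. Across 80 members with an annotated coding sequence, the EC-like ratio had a Spearman correlation of 0.30 with coding length, and the fibroblast-like ratio 0.37. Across 9275 other genes the correlation was 0.05, and 90 other genes with a coding sequence under 260 bases and at least 1000 UMIs had a median ratio of -0.03. The correlation with GC content was 0.01 across 81 members. These are descriptions across genes of the same libraries, and what moved with length was not tested.

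**Figure D3:**
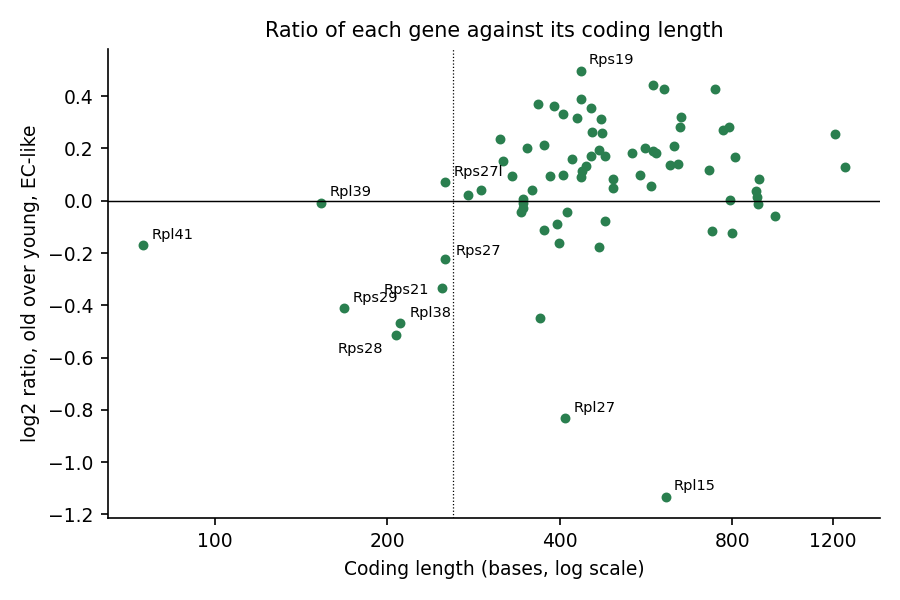
Log2 ratio of old over young in EC-like cells against coding length in bases on a log axis, 1 point per member, with a dotted line at 260 bases. Genes not reported here are left out. Of the 8 points left of the line 7 lie below 0, and Rpl15 and Rpl27 lie low to the right of it.

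In fibroblast-like cells the members were higher in the old library as a group. Of 81 members 52 were called higher, against 6.78% of all 5681 genes with at least 100 UMIs, and 1, Rpl15, was called lower, against 13.5% of all genes. Among 5600 other genes 333 (5.95%) were called higher. Among 169 genes with at least 5000 UMIs, 51 of 75 members were called higher, against 33.1% of these genes and 5 of the 94 that are not members (5.32%), and 0 members were called lower, against 11.8%. The members' median log2 ratio was 0.57, beside -0.08 over all genes, and 73 of 81 lay above 0. It was 0.59 for 32 small subunit and 0.52 for 49 large subunit members. Rps19 was highest with 2787 (young) and 5073 CPM (old) (0.86, 0.82 to 0.91). Rpl15, Rpl6l and Rpl27 had the lowest ratios in both classes. Across the 81 members the ratios of both classes had a Spearman correlation of 0.88, as a description, since each library supplied both classes. Within the ribosomal protein total, whose own ratio was 0.51, no member was called higher and 8 were called lower, with a median of 0.06. This scaling sets the members against their own sum, which centres them near 0. No share over all genes stands beside these counts.

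Marker lists moved with the fibroblast-like difference. The 8 fibroblast markers summed to 23512 (young) and 13465 CPM (old), the 6 erythroid markers to 25.6 and 1327 CPM, and the 9 endothelial markers to 431 and 937 CPM. Immediate early genes summed to 13410 and 10131 CPM, and mitochondrial transcripts made up 2.23% and 2.84% of UMIs. The 6 smooth muscle markers summed to 24.1 and 74.8 CPM, with Myh11, Cnn1 and Des at 0 in young. Their part in the result was not tested. A median fibroblast-like cell held 1392.5 ribosomal protein UMIs and 6966 other UMIs in young, and 1177 and 3640 in old. Members whose fibroblast-like ratio departed most from that in EC-like cells, relative to the median gap, were Rpl7l1, Rps27l and Rpl39. Rpl7l1, a factor of ribosome assembly and not a subunit of the mature ribosome, stood at -0.42 (-0.76 to -0.07) in fibroblast-like and -0.12 (-0.26 to 0.03) in EC-like cells. Rps27l stood at 0.14 (0.02 to 0.26) and 0.07, and Rpl39 at 0.16 (0.11 to 0.21) and -0.01.

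Within the old library the other classes were set against EC-like cells, with no difference in library between them. In T or NK-like cells 73 of 81 members were called higher than in EC-like cells, against 13.2% of all 8595 genes, and 2 were called lower, against 56.1%. The members' median log2 ratio was 0.99, beside -0.67 over all genes. CPM is relative to the class total, of which the members are a large share here, so other genes read lower when the members read higher. Rplp0 stood at 6570 CPM in T or NK-like cells against 1600.0 CPM in EC-like cells, for a ratio of 2.04 (1.97 to 2.10). Rpl12, a protein at the base of the stalk, stood at 3293 against 882 CPM (1.90, 1.81 to 1.99), and Rpsa at 3876 against 1169 CPM (1.73, 1.65 to 1.81). Rpl12 shared no 3′ sequence with other genes. The lowest ratios were those of Rpl7l1 at -1.69 (-3.01 to -0.64) on 7 UMIs, Rps27l at -0.92 (-1.28 to -0.58) and Rpl10 at 0.37 (0.29 to 0.44). Rpl7l1 and Rps27l were thus the members below their EC-like level.
In monocyte or macrophage-like cells 3 of 81 members were called higher, against 12.9% of all 8770 genes, and 0 lower, against 49.4%. The median was 0.13, beside -0.48 over all genes. Rplp0 again was highest with 2592 CPM (0.70, 0.63 to 0.76), followed by Rps26 with 1537 against 1016 CPM (0.60, 0.51 to 0.68) and Rps27l with 586 against 411 CPM (0.51, 0.37 to 0.65). Rps27 was lowest with 3391 against 4727 CPM (-0.48, -0.53 to -0.42), followed by Rpl7l1 (-0.41, -0.88 to 0.03) and Rps14 (-0.31, -0.36 to -0.27). Fibroblast-like over EC-like cells had a median of 0.37 in old, with 20 of 81 members called higher against 14.9% of all genes and 1 lower against 40.1%. In the young library it was -0.06, with 3 higher against 18.2% and 4 lower against 32% of all genes.

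**Figure D4:**
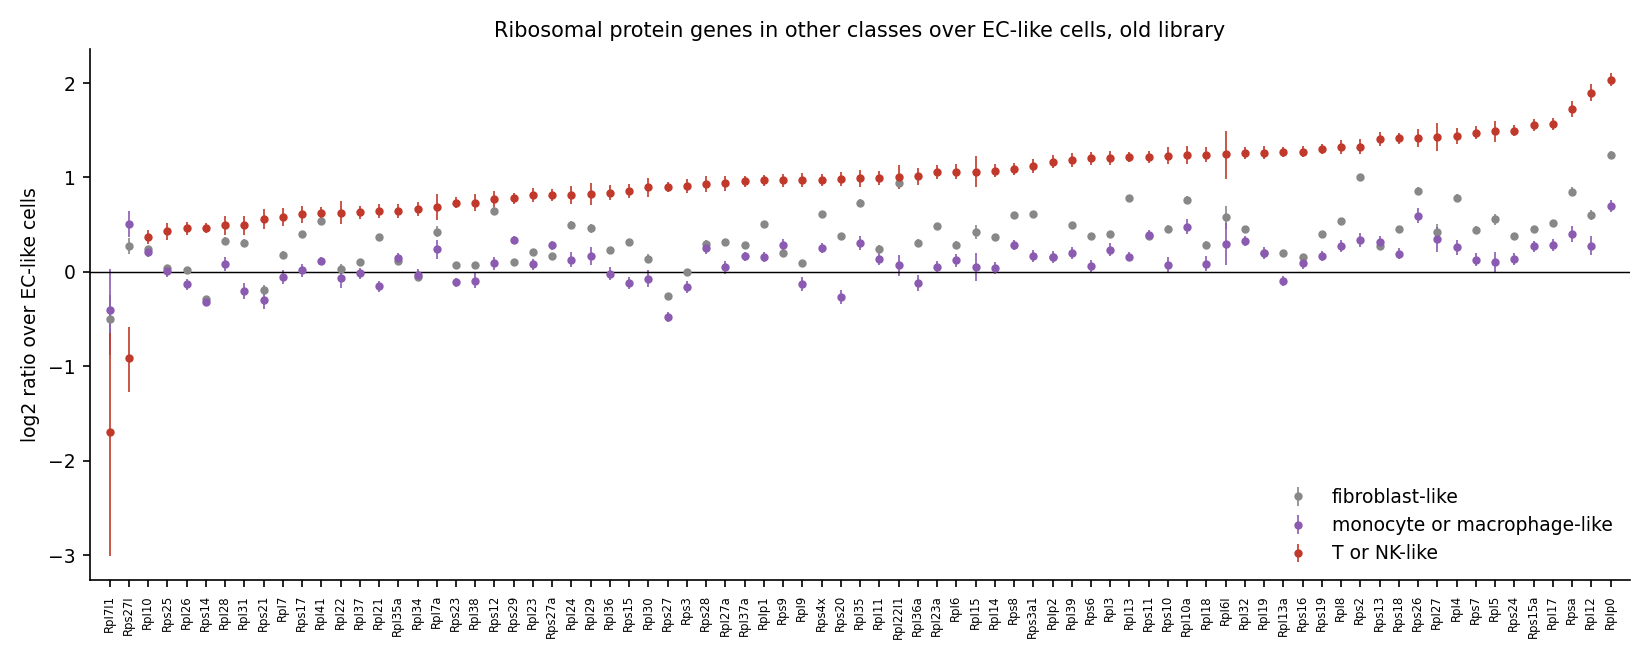
Log2 ratio of each member shown in fibroblast-like (grey), monocyte or macrophage-like (purple) and T or NK-like cells (red) over EC-like cells of the old library, ordered by the T or NK-like ratio, with exact 95% counting intervals. Red points rise to 2.04 for Rplp0, and Rpl7l1 and Rps27l are the red points below 0.

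Paralogues are second genes for a ribosomal protein, several of which are known from testis or muscle. Rpl10l, known from testis, had no UMI in any class, which with 3 counts as the limit allows up to 0.304 (young) and 0.271 CPM (old) in EC-like cells. Rpl3l, known from heart and skeletal muscle, had 0 UMIs in EC-like cells of both libraries and 1 UMI in old fibroblast-like cells. Rpl39l, also known from testis, had 11 young and 31 old UMIs in EC-like cells and 0 in fibroblast-like cells of both libraries. It made up 0.0542% (0.0271 to 0.0970%) of the Rpl39 pair in young and 0.137% (0.0928 to 0.194%) in old EC-like cells. These 3 did not reach 100 UMIs and stand outside the counts above.
Rpl22l1, the paralogue of Rpl22, was abundant. It made up 36.6% (35.9 to 37.4%) of the UMIs of the pair in young and 41.2% (40.5 to 41.8%) in old EC-like cells. In fibroblast-like cells it made up 54.4% (52.8 to 56.0%) and 56.7% (55.6 to 57.8%), so there the paralogue had more UMIs than Rpl22. It stood at 608 and 785 CPM in EC-like and at 977 and 1503 CPM in fibroblast-like cells. Rps27l, a p53-induced paralogue of Rps27, made up 6.63% (6.43 to 6.83%) of its pair in young and 8.01% (7.78 to 8.23%) in old EC-like cells, 14.7% in old monocyte or macrophage-like cells and 2.42% in T or NK-like cells. Rpl7l1 made up 3.97% (3.70 to 4.26%) and 3.29% (3.06 to 3.52%) of its pair in EC-like cells. Rpl36al, which the naming rule does not take in, made up 24.2% (23.5 to 24.8%) and 25.9% (25.3 to 26.4%) of the Rpl36a pair. Rps4l was not analysed here.

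Pseudogene rows went apart from the members. All 12 -ps rows with at least 100 UMIs in EC-like cells were called lower in old, against 6.84% of all genes, with a median log2 ratio of -1.32. The genes they are copied from had a median of 0.05. Together the 16 -ps rows held 2609 (young) and 952 CPM (old) in EC-like cells, and 2708 and 1402 CPM in fibroblast-like cells. Rpl9-ps6 stood at 386 and 87.5 CPM in EC-like cells (-2.14, -2.24 to -2.04), while Rpl9 stood at 2149 and 2231 CPM (0.05, 0.03 to 0.08). Rps12-ps3 stood at 604 and 214 CPM (-1.50, -1.57 to -1.43), while Rps12 had a ratio of -0.09. Rpl10-ps3 stood at 584 and 180.2 CPM (-1.70, -1.77 to -1.62) and shares 93.4% of the 3′ sequence of Rpl10. These rows and their parents share sequence, and how reads that fit both were assigned is not given in the sources used here, so the counts of both are uncertain.

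A further 27 rows with other names shared at least 10% of the 3′ sequence of a member or of a related ribosomal protein gene. Of the 18 with at least 100 UMIs in EC-like cells 16 were called lower in old, against 6.84% of all genes, and 1 higher, against 8.29%. Their median was -1.40. Gm8730, which shares sequence with Rplp0, stood at 459 and 81.0 CPM (-2.50, -2.61 to -2.40), Gm10073, which shares it with Rplp1, at 764 and 279 CPM (-1.46, -1.52 to -1.39), and Wdr89, which shares it with Rplp2, at 611 and 220 CPM (-1.48, -1.55 to -1.41). Gm10020 shares sequence with Rpl15 and stood at 109 and 19.8 CPM (-2.46, -2.68 to -2.25), below the ratio of Rpl15 itself. The row called higher was Gm10260, which shares 50.9% of the 3′ sequence of Rps18. It had 165 young and 1340 old UMIs in EC-like cells (2.85, 2.62 to 3.09) and 33 and 562 UMIs in fibroblast-like cells (3.52, 3.01 to 4.07). BC004004, which shares sequence with Rpl21, stood at 0.18 (0.02 to 0.35).
For each 100 UMIs of the parent, Gm8730 had 27.6 young and 5.06 old UMIs in EC-like cells, 30.2 and 4.84 in fibroblast-like cells, and 4.78 and 5.84 in old monocyte or macrophage-like and T or NK-like cells. For Rps12-ps3 the rates were 29.3 and 11.03 in EC-like cells, 29.6 and 12.3 in fibroblast-like cells, and 10.6 and 12.4 in the other old classes. In both rows this rate was close among the classes of 1 library and differed between the libraries. With the copy rows added to the parent, the EC-like ratio moved from -0.06 to -0.34 for Rplp0, from -0.04 to -0.21 for Rplp1, from -0.01 to -0.19 for Rplp2. The sign turned for Rpl10, from 0.14 to -0.04 (-0.06 to -0.02), for Rpl9, from 0.05 to -0.13 (-0.15 to -0.10), for Fau, from 0.15 to -0.05 (-0.07 to -0.02), and for Rps26, from 0.01 to -0.03 with both intervals spanning 0.

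**Figure D5:**
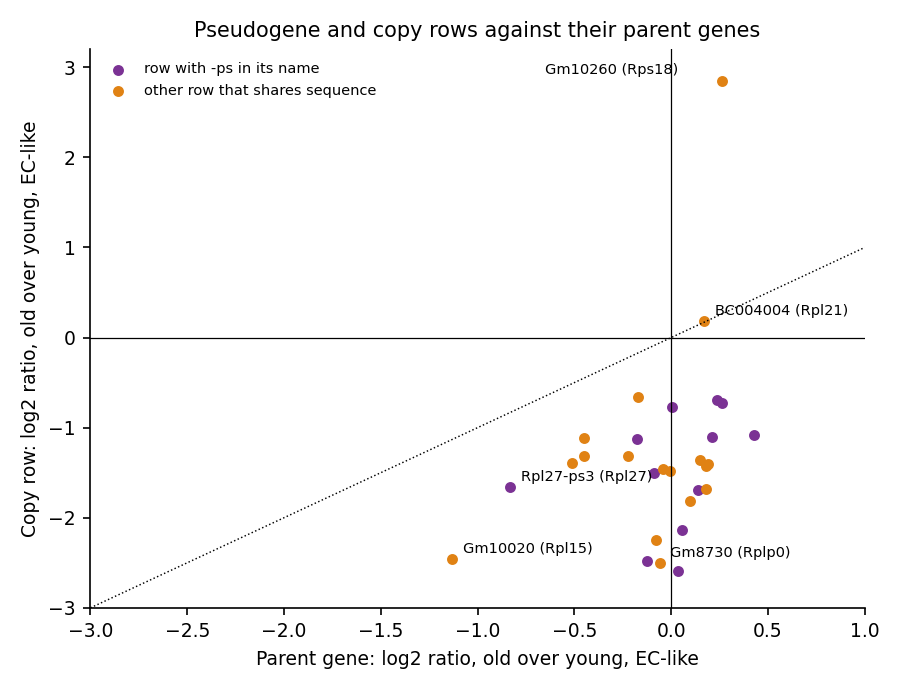
Purple points are -ps rows and orange points other rows: log2 ratio of old over young in EC-like cells of each pseudogene or copy row with at least 100 UMIs (vertical axis) against that of its parent gene (horizontal axis), with a dotted line where both are equal. All rows shown but Gm10260 and BC004004 lie below the line.

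Fau encodes the ribosomal protein S30 fused to a ubiquitin-like protein and falls outside the naming rule. Fau stood at 2428 (young) and 2693 CPM (old) in EC-like cells (0.15, 0.12 to 0.17), a direction that turns when its copy row is added. Rps27rt, a retrogene of Rps27, stood at 630 and 253 CPM (-1.32, -1.38 to -1.25). Rps27a, a member made as a fusion with ubiquitin, stood at 2744 and 3142 CPM (0.20, 0.17 to 0.22).

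Lists of related genes were described in the same way. Of 19 translation factors and other genes with TOP messages none was called in EC-like cells, against 8.29% of all genes called higher and 6.84% lower. Their median log2 ratio was 0.08, with 14 above 0. The highest were Eif3e at 0.38 and Eef1d at 0.36, and the lowest Pabpc1, the poly(A)-binding protein, at -0.47 and Tpt1 at -0.24. In fibroblast-like cells 9 of the 19 were called higher, against 6.78% of all genes, and 0 lower, against 13.5%. The median was 0.41, beside -0.08 over all genes. Those called higher included Gnb2l1, the ribosome scaffold protein also called Rack1, at 609 and 961 CPM (0.66), and Eif3e at 0.65. The other 10 were not called, among them Tpt1 at 0.11, Pabpc1 at 0.14, Eif4a2 at -0.11 and Eif2s3x at -0.11. Ribosome biogenesis genes had medians of 0.04 over 29 genes in EC-like and -0.04 over 20 genes in fibroblast-like cells. In EC-like cells Nhp2, a protein of box H/ACA particles, stood at 36.9 and 73.8 CPM (1.00) and Polr1b at 0.63, while Bop1 stood at -0.41 and Rrn3 at -0.33.
Of 22 mTOR and TOP regulators 1 was called lower in EC-like cells, against 6.84% of all genes, and 0 higher, against 8.29%. The 1 called was Ddit4, an inhibitor of mTOR, at 160 and 94.8 CPM (-0.75). Larp1, which binds the TOP tract, stood at -0.10 (-0.34 to 0.13), Larp4 at -0.44, Mlst8 at 0.39 and Rps6kb1 at 0.33. Of 5 measured small nucleolar RNA host genes, Snhg9 stood at 26.6 and 4.87 CPM (-2.45), Snhg6 at -1.04, Snhg20 at 0.21 and Snhg12 at 0.09. The 76 measured genes of the mitochondrial ribosome, a separate machine, had a median of 0.21 in EC-like and, over 66 genes, of 0.08 in fibroblast-like cells. Mrpl45 was highest in EC-like cells at 0.59 and Mrps24 next at 0.55, and Mrpl10 was lowest at -0.46, before Mrpl33 at -0.15. Mitochondrial ribosomal proteins as a whole held 0.484% of UMIs in young and 0.520% in old fibroblast-like cells, so the large difference of the cytosolic members was not seen for them. Immediate early genes had medians of -0.998 in EC-like and -0.50 in fibroblast-like cells, with all 19 below 0 in EC-like cells.

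Across single EC-like cells thinned to 3000 UMIs, the counts of single members varied little more than counting gives at that depth. The Fano factor, the variance over the mean, which is 1 for pure counting, had a median of 1.16 over 81 members in young and 1.22 in old. Rps27 was highest in young at 1.64 and Rps14 in old at 1.68. Low means draw the Fano factor towards 1, and in young the means ran from 0.234 (Rpl7l1) to 18.7 UMIs per cell (Rps29). The summed share had a standard deviation over cells of 2.49 percentage points in young and 3.05 in old, where counting alone gives 0.697 and 0.713. It rests on more UMIs than any member, so the spread of the sum and of single members cannot be compared directly. A member's count correlated with the sum of the others at a median of 0.30 in young and 0.36 in old, as a description over cells of 1 library each. Before thinning, the share of a cell had a Spearman correlation with its mitochondrial percent of -0.26 in young and -0.33 in old EC-like cells, and with its immediate early share of -0.05 and -0.25. In old fibroblast-like cells the correlation with the immediate early share was 0.36. After thinning, 94.4% of young and 74.9% of old EC-like cells held a UMI of Rpl15, and 100% of both held one of Rps19.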

How the data were processed

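Per the labels, 1 young and 1 old aorta gave 1 single-cell 3′ library each. The deposited files hold raw UMI counts per gene and barcode, and per the submitters' processing notes they come from Cell Ranger on GRCm38. The sources used here do not give versions or how reads that fit several genes were assigned.

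A barcode was kept with 200 genes or more and no more than 10% of its UMIs mitochondrial. A doublet caller marked 5 young and 4 old barcodes, under 0.5% of cells, so it is not taken to have worked. Clusters were built with scanpy 1.11.5 without ribosomal protein genes, from 2000 variable genes, 30 components and 15 neighbours at resolution 0.5. They were named where at least 3 markers were each seen in 25% of cells. A name was withdrawn where the 10 leading genes of a cluster held more markers of another class than of its own. The unnamed cluster lost an EC-like name in this way, with 7 endothelial markers each seen in 25% of its cells.

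UMIs were summed per class and library. Levels are CPM, and ratios are log2 of CPM with exact conditional binomial 95% intervals. A gene with at least 100 UMIs and a log2 ratio of at least 0.5 up or down is called. The ratio code was tested on simulated data. Named members were the 5 highest and lowest by level and ratio, the 3 at each end of the T or NK-like and macrophage-like ratios, the 3 with the largest gap between classes, paralogues and members with known roles. Other members with short coding sequences and copy rows were named after their values were seen. Some genes the rule takes in are not reported here, in the text or the figures. Members and lists were chosen with earlier results of these data known. Shared sequence was counted over the last 500 bases of GENCODE vM21 transcripts. The markers Trac, Trbc2, Ighm and Igkc were not analysed here.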

Additional observations from a re-analysis of the deposited data

Results flagged for a closer look

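For 11 members the old-over-young log2 ratio had its whole counting interval below 0 in EC-like cells and above 0 in fibroblast-like cells. The fibroblast-like ratio exceeded the EC-like one by 0.67 for Rps12, 0.55 for Rpl28, 0.55 for Rps24, 0.52 for Rpl29, 0.51 for Rplp0, 0.51 for Rpl41, 0.49 for Rplp1, 0.46 for Rpl7a, 0.45 for Rpl31, 0.40 for Rpl23a and 0.30 for Rps27. The median member stood at 0.10 in EC-like and 0.57 in fibroblast-like cells, so a higher fibroblast-like ratio was common among members and not particular to these 11. The share of all genes with this pattern is not given here. With 1 library per age the difference was not tested, and both classes come from the same libraries.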

How the results depend on the processing

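The values were recomputed under 17 other settings. Of the summary values 108 stayed within the criteria and 47 moved. Among single members 310 stayed, 158 moved and 7 were marked as reversed. That mark did not take in every crossing of 0. Rps26, at 0.01 in the main setting, ran from -0.14 to 0.03 over the other settings without it. The share ratio stayed above 0 in both classes under each setting that recomputed it.

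With clusters built with the ribosomal protein genes the EC-like share ratio was 0.10 and the fibroblast-like 0.52, with shares of 17.8% in young EC-like and 24.1% in old fibroblast-like cells. With a marker rule per cell they were 17.8% and 19.1% in EC-like cells (ratio 0.10) and 23.9% in old fibroblast-like cells. At most 5% mitochondrial UMIs gave 19.2% in old EC-like (0.11) and 24.1% in old fibroblast-like cells (0.52). Keeping doublet calls gave 17.8% in young EC-like and 23.8% in old fibroblast-like cells. Without mitochondrial and haemoglobin genes in the denominator EC-like cells had 18.2% and 19.6% (0.11) and fibroblast-like cells 17.1% and 24.6% (0.52), and 1 member was called higher in EC-like cells. In cells with 4000 to 8000 UMIs EC-like cells had 17.8% and 18.4% (0.0462), fibroblast-like cells 15.9% and 24.0% (0.59), 2 members were lower in fibroblast-like cells with a member median of 0.68, and Rpl5 changed sign to -0.0144.

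Counting the unnamed cluster as EC-like, added after seeing the data, gave 17.8% in young and a ratio of 0.10. EC clusters led by Sost and Coch alone, also added, gave 1 member called higher and Rplp1 at 0.0472. The cluster of this kind that was named EC-like held 411 young and 1 old cells, so no conclusion is drawn from this setting. The other EC clusters gave 17.7% in young and a ratio of 0.11. Adding copy rows, added too, turned Rpl10 to -0.0361, Rpl9 to -0.13, Fau to -0.05 and Rps26 to -0.03. Within the ribosomal protein total 7 members were lower in EC-like cells, 0 higher and 8 lower in fibroblast-like cells with a median of 0.0595, and Rpl12 stood at -0.0116, Rpl22 at -0.00064, Rpl5 at -0.0111 and Rps27l at -0.0238. With no UMI minimum 1 member was higher in EC-like cells. At a log2 ratio of at least 1, 1 member was lower in EC-like cells, and 0 were lower and 0 higher in fibroblast-like cells. Under 10% of 3′ sequence was shared by 12 members, of which Rpl10l, Rpl3l and Rpl39l did not reach 100 UMIs. In this smaller set 0 were lower in EC-like cells, 0 lower and 7 higher in fibroblast-like cells, and 8 lay above 0 in each class. In the main setting, a log2 ratio of at least 0.5 and at least 100 UMIs, 6.84% of all genes were lower and 8.29% higher in EC-like cells. In fibroblast-like cells 13.5% were lower and 6.78% higher. At a log2 ratio of at least 1, 2.22% of all genes were lower in EC-like cells. Shares over all genes under the other settings are not given here, so their counts of members cannot be set against a background.

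No paired analysis was possible because each age has 1 library, so leaving out a replicate was not done either. EC-like clusters were not compared one by one: no cluster held 100 cells of both libraries. Depth limits members with few UMIs, such as Rpl7l1 in T or NK-like cells.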
